A study of Mus musculus with 7 samples.

Results

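The genes described here are 10 surface and lysosomal markers of the macrophage, out of 22225 protein-coding genes annotated on mm9. They were chosen by name as Fcgr1, Fcgr2b, Fcgr3, Fcgr4, Emr1, Cd68, Mrc1, Msr1, Cd36 and Lyz2. A peak of PU.1 or MITF was assigned to a gene when the centre of the peak lay in the gene or within 30 kb of either end. ChIP-Seq was performed on bone marrow myeloid cells of C57BLACK6 mice (C57BL/6J in the study's methods) aged 4 to 6 weeks, with no genetic alteration given in the labels, after 3 days of culture in 50 ng per ml CSF1. Myeloid precursors (MPs) received CSF1 only, the 36 h cells received CSF1 and 100 ng per ml RANKL for 36 h, and osteoclasts (OCs) received both for 72 h. PU.1 and MITF were each precipitated at these 3 stages and non-specific IgG from MPs, which gave 7 libraries, 1 for each condition. No condition had a replicate, so each test below compares 2 libraries and not 2 conditions. The labels do not say how many mice were pooled. The libraries measure binding and not expression, so the labelled cell type could not be checked against marker RNA, and less binding per cell cannot be told apart from fewer cells with a bound site.

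Macrophages and osteoclasts arise from the same CSF1-dependent precursors, and RANKL directs these precursors to the bone-resorbing osteoclast. PU.1 is an Ets family transcription factor that recognises a purine-rich core with the letters GGAA and is required for the myeloid lineage, and MITF is a basic helix-loop-helix partner that recognises E-boxes. The Fc receptors bind the constant part of IgG: Fcgr1 is the high-affinity receptor, Fcgr3 and Fcgr4 are activating receptors that signal through the ITAM adaptor Fcer1g, and Fcgr2b is the inhibitory receptor. Emr1 encodes F4/80, Cd68 encodes the lysosomal glycoprotein macrosialin, Mrc1 is the mannose receptor, Msr1 and Cd36 are scavenger receptors, and Lyz2 encodes the lysozyme of myeloid cells.

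Every gene had PU.1 peaks in all 3 PU.1 lists. On mm9 the Fc receptors Fcgr2b (chr1:172890689-172906678, minus strand), Fcgr4 (chr1:172949051-172959892, plus strand) and Fcgr3 (chr1:172981300-172995066, minus strand) lie side by side, and their windows overlap. Fcgr1 is at chr3:96086832-96098179 (minus strand), Emr1 at chr17:57498109-57622952 (plus strand), Cd68 at chr11:69477715-69479655 (minus strand) and Mrc1 at chr2:14151041-14253684 (plus strand). Msr1 is at chr8:40667054-40728032, Cd36 at chr5:17287508-17394777 and Lyz2 at chr10:116714390-116719377, all on the minus strand. The windows merge into 8 regions with 998.4 kb in all. Other protein-coding genes also start in some windows, 7 in that of Cd68, 3 histone genes in that of Fcgr1, and Lyz1, the neighbouring lysozyme gene, in that of Lyz2.

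The sequences under the highest PU.1 site of each gene are shown first, because the results turn on these sites. They are the intervals of the MP peaks on mm9, read 5′ to 3′ on the plus strand, without parts annotated as UTR. The Fcgr2b site lies in an annotated UTR and is not printed. Capitals mark the PU.1 cores GAGGAA and GGAAGT, which can overlap as GAGGAAGT, and the E-boxes CACGTG and CATGTG, each on either strand.
Fcgr1 (chr3:96097893-96098033): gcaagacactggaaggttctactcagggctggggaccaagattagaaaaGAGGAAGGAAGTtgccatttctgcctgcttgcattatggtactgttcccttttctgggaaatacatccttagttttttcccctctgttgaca
Fcgr3 (chr1:172989535-172989623): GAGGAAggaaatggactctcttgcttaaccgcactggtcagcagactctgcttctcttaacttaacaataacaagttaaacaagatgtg
Fcgr4 (chr1:172936576-172936726): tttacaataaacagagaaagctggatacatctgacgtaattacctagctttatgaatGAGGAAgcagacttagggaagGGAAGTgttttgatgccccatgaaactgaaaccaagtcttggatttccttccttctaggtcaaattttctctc
Emr1 (chr17:57486521-57486671): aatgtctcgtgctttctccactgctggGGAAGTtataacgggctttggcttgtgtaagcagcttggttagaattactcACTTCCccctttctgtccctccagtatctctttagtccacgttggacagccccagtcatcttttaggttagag
Cd68 (chr11:69479656-69479720): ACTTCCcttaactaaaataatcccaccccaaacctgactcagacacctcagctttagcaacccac
Mrc1 (chr2:14128548-14128698): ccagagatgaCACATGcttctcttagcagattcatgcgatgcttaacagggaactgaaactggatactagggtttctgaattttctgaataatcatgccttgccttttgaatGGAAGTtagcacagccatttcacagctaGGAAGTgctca
Msr1 (chr8:40705246-40705396): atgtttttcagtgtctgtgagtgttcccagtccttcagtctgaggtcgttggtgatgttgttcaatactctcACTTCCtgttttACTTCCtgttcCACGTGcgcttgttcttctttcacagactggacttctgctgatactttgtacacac
Cd36 (chr5:17345481-17345631): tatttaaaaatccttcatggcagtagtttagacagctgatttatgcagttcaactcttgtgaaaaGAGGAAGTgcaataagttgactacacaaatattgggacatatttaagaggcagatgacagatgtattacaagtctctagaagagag
Lyz2 (chr10:116738793-116738943): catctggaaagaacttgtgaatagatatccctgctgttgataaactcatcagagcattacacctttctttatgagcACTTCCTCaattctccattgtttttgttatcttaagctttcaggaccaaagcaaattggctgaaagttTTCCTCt

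Of the 10 highest sites, 9 held GGAAGT and 6 held GAGGAA somewhere in the whole peak. The Cd36 and Lyz2 peaks held the joined form GAGGAAGT, and the Emr1 peak held GGAAGT on both strands. The Msr1 peak held ACTTCC, the reverse complement of GGAAGT, 2 times, followed by the E-box CACGTG. The Mrc1 peak held GGAAGT 2 times and CACATG, the reverse complement of CATGTG. The Cd68 peak held a match to the AP-1 letters TGANTCA, which are not in capitals. These letters were not particular to the markers. GGAAGT was in 66 of the 121 MP peaks of the 10 genes (54.5%) and in 60.2% of the 76243 MP peaks, GAGGAA was in 65 (53.7%) and in 54.9%, and GAGGAAGT was in 18 (14.9%) and in 22.1%. Among MP peaks with a score of at least 100, GGAAGT was in 18 of the 24 of the genes (75.0%) and in 73.7% of 7553, and GAGGAA was in 13 (54.2%) and in 65.7%. CACGTG was in 3 of the 121 peaks (2.48%) and in 2.45% of the list, CATGTG in 11 (9.09%) and in 11.2%, and TGANTCA in 8 (6.61%) and in 9.55%. A match is a description of the letters and not of a factor bound there.

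The 10 genes held 121 PU.1 peaks in MPs (95% Poisson interval 100.4 to 145), 99 at 36 h (80.5 to 121) and 115 in OCs (94.9 to 138), each peak counted once. No IgG peak lay in any window, out of 349 in that list. The intervals overlap, and they cover counting error alone. The median gene of the 10 had 12.5 peaks in MPs, 10 at 36 h and 12.5 in OCs, against 4 in each library for all 22225 protein-coding genes. Per 100 kb of window the medians were 13.89, 9.24 and 10.3 peaks, against 4.59, 4.53 and 4.72 for all genes, and all 10 genes were above the median gene in each library. The Peak Score, which counts the tags of a peak on the authors' common scale, had a median of 47.8, 39.9 and 41.1 in the windows and of 23.9, 23.7 and 23.5 in the whole lists. Thus the markers held more and higher peaks than the typical gene or peak, before and after RANKL.

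**Figure D1:**
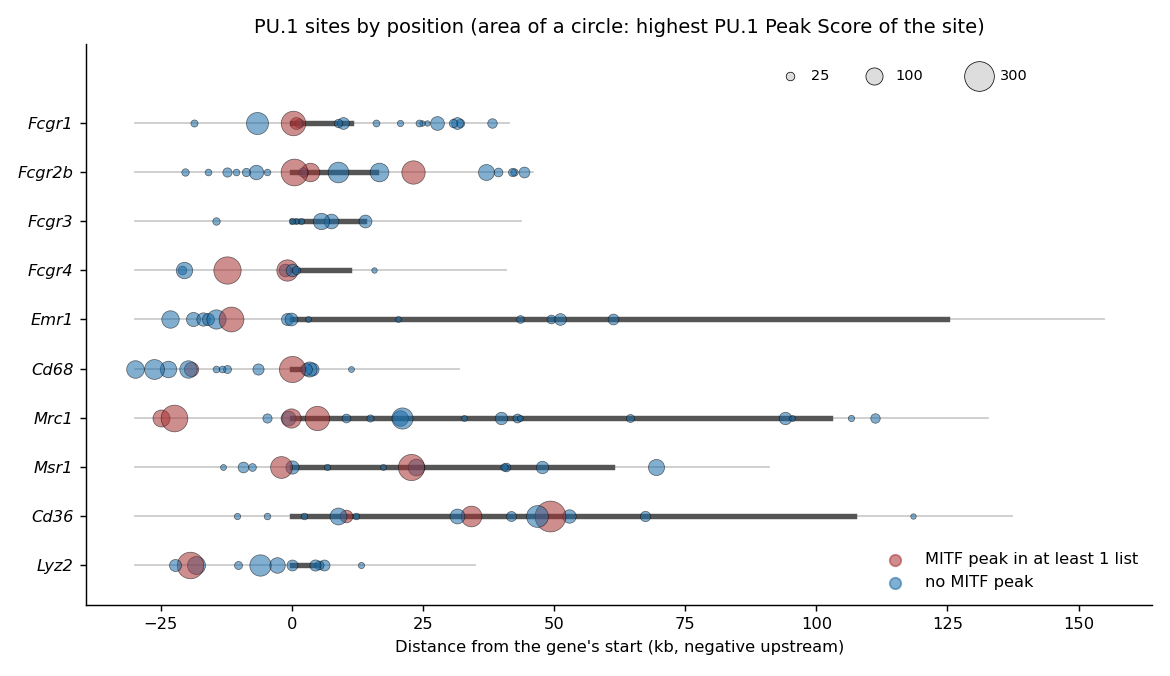
Positions of the 135 PU.1 sites of the 10 genes, with the distance from the start of the gene in kb on the x axis (negative upstream), the gene as a thick line and its window of 30 kb to either side as a thin line. The area of a circle is the highest PU.1 Peak Score of the site, red circles have a MITF peak in at least 1 list, and a site in several windows is drawn at the gene with the nearest start. The largest circle is the intronic Cd36 site, and the red circles are mostly large.

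Among the Fc receptors, Fcgr2b had the most PU.1 peaks, with 19 in MPs, 14 at 36 h and 19 in OCs. Fcgr1 had 15, 13 and 12, Fcgr4 had 13, 7 and 8, and Fcgr3 had 8, 5 and 5. Of the other markers, Mrc1 had 17, 14 and 15 and Cd68 had 13, 10 and 14. Emr1 had 11, 10 and 13, Msr1 had 12, 10 and 11, Cd36 had 11, 11 and 13, and Lyz2 had 11, 10 and 11. In 9 genes the 36 h count was below the MP count, and Cd36 had the same count in both. With single libraries, differences of this size between counts are within the Poisson intervals. The windows of Fcgr2b, Fcgr4 and Fcgr3 share peaks, so these genes are not separate observations. The whole 36 h list was also shorter, with 71941 peaks against 76243 in MPs. With the lists cut to the shortest, the 10 genes held 119 peaks in MPs, 99 at 36 h and 113 in OCs. The share of all genes with fewer peaks at 36 h is not given. Fcgr2b was the densest in MPs with 25 peaks per 100 kb, Fcgr1 and Cd68 followed at about the same density of 21.0, and Emr1 was the sparsest with 5.95.

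**Figure D2:**
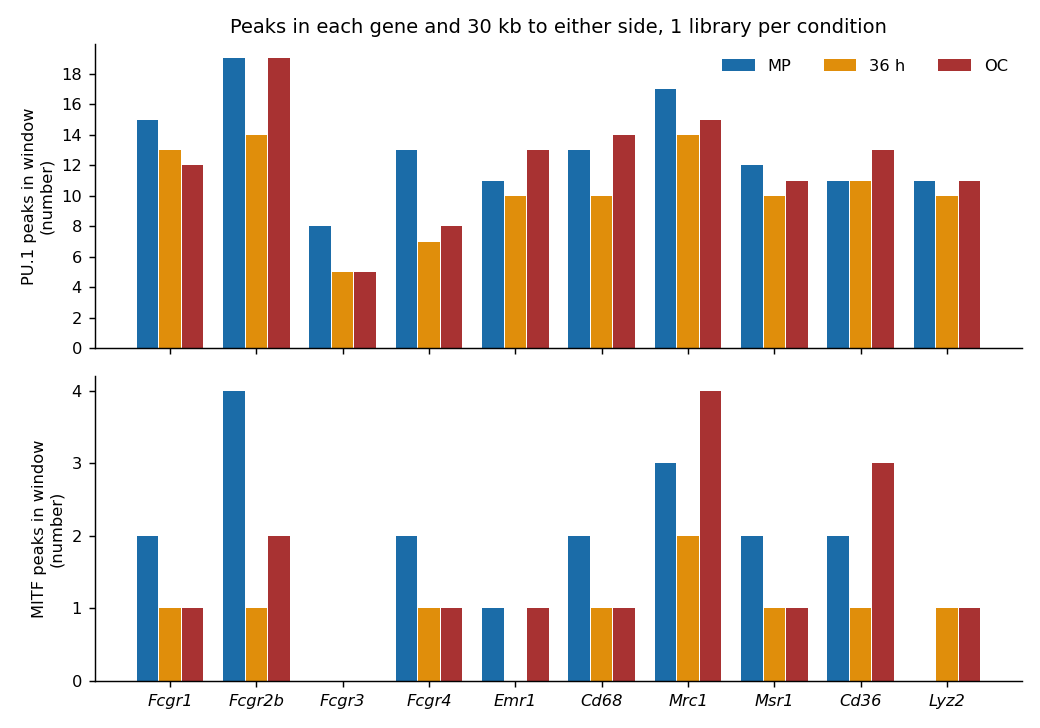
Number of PU.1 peaks (top) and MITF peaks (bottom) in each gene and 30 kb to either side, with 1 bar for each library (MP, 36 h of RANKL, OC). PU.1 bars range from 5 to 19 peaks and MITF bars from 0 to 4, and Fcgr3 has no MITF peak.

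Merging overlapping peaks of the 3 PU.1 lists gave 135 sites at the 10 genes. Of these, 87 (64.4%, 95% Wilson interval 56.1 to 72.0) were called in all 3 lists, against 50.5% of 102376 sites in the genome. A further 18 were called in MPs and OCs but not at 36 h (13.3%, against 8.27% of all sites). In MPs and at 36 h alone 5 were called (3.70%, against 4.56%), and at 36 h and in OCs alone 3 were (2.22%, against 6.17%). The remaining sites were in a single list, 11 in MPs (8.15%, against 11.1%), 4 at 36 h (2.96%, against 9.03%) and 7 in OCs (5.19%, against 10.3%). Sites in a single list were mostly low, with a median highest score of 13.6 for the MP sites and 14.7 for the OC sites, against 61.7 for the sites of all 3 lists. By position, 47 sites were intronic, 6 exonic, 52 upstream and 30 downstream of the gene with the nearest start among the 10. For 98 of the 135 sites the nearest protein-coding start was that of 1 of the 10 genes, but for Cd68 this held for 1 of 14 sites.

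Of the 121 MP peaks, 92 overlapped a 36 h peak (76.0%, 67.7 to 82.8), close to the 73.9% of the whole MP list. In OCs 105 of the 121 were called again (86.8%, 79.6 to 91.7), and the whole list gave 78.8%. In reverse, 105 of the 115 OC peaks were already in the MP list (91.3%, 84.7 to 95.2), against 78.0%. Of the 99 peaks at 36 h, 92 were in the MP list (92.9%) and 90 in the OC list (90.9%), against 78.3% and 80.6%, and 90 of the 115 OC peaks were in the 36 h list (78.3%), against 75.3%. The 29 MP peaks without a 36 h partner had a median score of 15.4 and a highest score of 88.7. A 36 h peak was centred within 500 bp of 5 of them. No 2 centres in the 36 h list were closer than 444 bp, against 370 bp in the MP and OC lists, and 36 h peaks were 190 bp wide against 150 bp. The part of this in the missing partners was not tested.

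Several of the sites missing from a list were strong. In Mrc1, the site 20920 bp into the gene scored 88.7 in MPs and 152.7 in OCs and was not listed at 36 h, but a 36 h peak of 82.8 stood at 20562 bp. In Emr1, the site 18905 bp upstream scored 68.2 in MPs and 39.6 in OCs with no 36 h peak, and the site 16074 bp upstream was listed in OCs alone, at 49.9. In Fcgr4, the site 1295 bp upstream scored 54.6 in MPs and was not listed after RANKL. The site 931 bp upstream was listed at 155.2 in MPs, 93.1 at 36 h and 124.8 in OCs. The smallest distance between centres was 444 bp at 36 h but 370 bp in both MPs and OCs, and the MP list held both sites. These sites were singled out after their values were seen.

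PU.1 peaks stood at the starts of most of the genes. In 9 of the 10 genes at least 1 site was centred within 1 kb of the gene's 5′ end, 15 such sites in all, and Cd36 was the exception. Cd36 had a site within 1 kb of another of its transcript starts, at 52878 bp, with 61.4 in MPs, 42.9 at 36 h and 61.7 in OCs. The highest of the 15 sites was that of Fcgr2b, 450 bp inside the gene in an annotated UTR exon, with 243.9, 180.3 and 180.6 in MPs, at 36 h and in OCs. Cd68 followed with 233.7, 212.9 and 180.6 at 13 bp from its start, and Fcgr1 with 204.7, 134.5 and 143.9 in its intron, 202 bp from the start. Fcgr4 had 155.2, 93.1 and 124.8 at 931 bp upstream and 37.5, 50.3 and 54.3 at 2 bp upstream. At the starts of the other genes the scores were below those of Fcgr2b, Cd68 and Fcgr1 at each stage. Mrc1 scored 85.3, 72.4 and 126.3 at 163 bp upstream, Emr1 56.3, 32.5 and 52.9 at 208 bp upstream, Msr1 59.7, 29.6 and 42.6 at 31 bp upstream and Lyz2 39.2, 29.6 and 41.1 at 41 bp upstream. Fcgr3 scored 13.6 and 10.3 in MPs and at 36 h at 36 bp inside the gene and had no OC peak there.

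The highest site of a gene was taken as the one with the highest mean score over the 3 lists, each site being given to the gene with the nearest start among the 10. It was more than 10 kb from the gene's 5′ end in 6 of the 10 genes. It was intronic in Cd36, 49.2 kb from the 5′ end, with 324.1 in MPs, 193.6 at 36 h and 192.4 in OCs. Another annotated Cd36 transcript start lies within 1 kb of the site at 52878 bp, so the highest Cd36 site is nearer to that start. The highest Fcgr4 site, 12.4 kb upstream and also in the window of Fcgr2b, scored 254.2, 170.0 and 177.7. The Mrc1 site 22.4 kb upstream scored 242.2, 180.3 and 193.8, and the Emr1 site 11.5 kb upstream scored 209.8, 168.5 and 179.1. The Lyz2 site 19.5 kb upstream, which lies nearer to the start of Lyz1, scored 240.5, 130.1 and 192.4. The Msr1 site, in a coding exon 22.7 kb from the start, scored 233.7, 143.4 and 192.4. Fcgr3 had the weakest highest site, an intronic one 5.5 kb from its 5′ end and within 1 kb of another of its transcript starts, with 92.1, 47.3 and 63.1. In single libraries another site could be higher: Fcgr3 had 53.2 at 36 h and 69.0 in OCs at 7400 bp, and Lyz2 had 131.6 at 36 h at 6133 bp upstream. The MP value was above the 36 h and the OC value at all 10 highest sites. Since these sites were picked for a high mean score, this is a description of them. Over 6526 sites of the genome with a mean score of at least 100, the median log2 score ratio to MPs was also below 0. It was -0.23 at 36 h and -0.14 in OCs. The share of such sites with their highest score in MPs is not given. In MPs the interval of Cd36 (279.7 to 374) met those of Fcgr4, Mrc1, Lyz2 and Fcgr2b, and the interval of Fcgr3 (69.2 to 120) lay below those of all other genes.

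**Figure D3:**
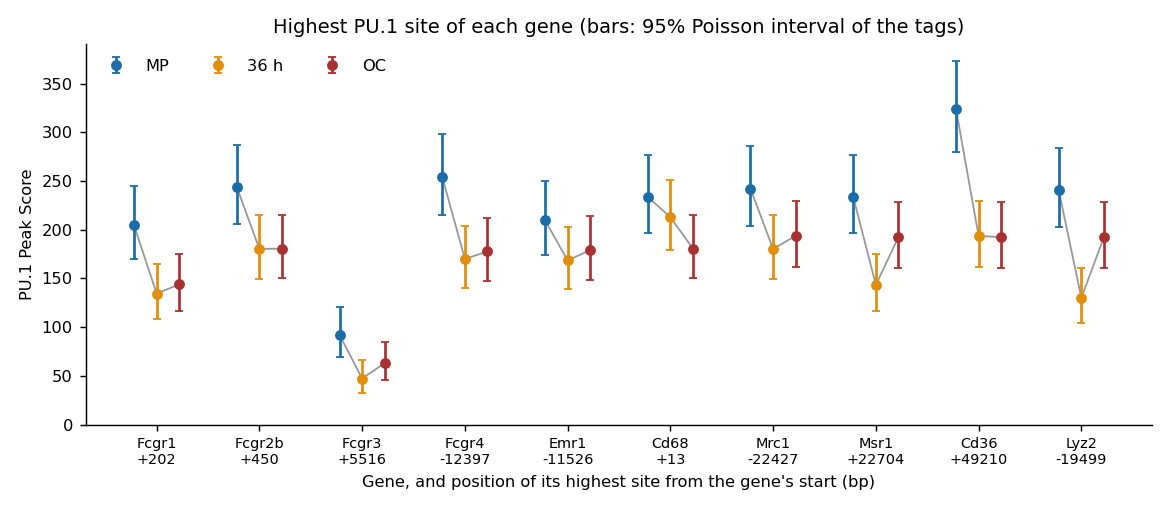
PU.1 Peak Score (y axis) of the highest PU.1 site of each gene in the MP, 36 h and OC libraries, with the position of the site from the gene's start in bp under each gene and bars for the 95% Poisson interval of its tags. All 10 sites, picked for a high mean score, have their highest score in MPs, Cd36 stands at 324.1 and Fcgr3 is lowest in each library.

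Changes were first tested peak by peak. The median PU.1 peak was 190 bp wide at 36 h and 150 bp in MPs and OCs, so tags at 36 h can come from a wider stretch. The part of this in the ratios was not tested. Tags of overlapping peaks were compared by an exact binomial test against the median ratio of all pairs, and a pair was called at an adjusted p under 0.05 (Benjamini-Hochberg over all pairs) and a 2-fold change. None of the 92 pairs of the 10 genes was called between MPs and 36 h, where 1.05% of 56335 pairs in the genome were called, 0.341% higher and 0.712% lower at 36 h. None of 90 was called between 36 h and OCs, against 0.0707% of all pairs, 0.0224% higher and 0.0483% lower in OCs. None of 105 was called between MPs and OCs, against 0.156%, 0.0682% higher and 0.0882% lower in OCs. At an unadjusted p under 0.05 there were 17 pairs at 36 h against MP, all 17 lower at 36 h. There were 7 for OC against 36 h, all higher in OCs, and 16 for OC against MP, 4 higher and 12 lower. These are 18.5%, 7.78% and 15.2% of the genes' pairs, against 10.9%, 6.45% and 7.84% of all pairs, in either direction. The split of all pairs by direction at this threshold is not given. 

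Without the 2-fold limit, 3 sites were lower and none was higher at 36 h than in MPs, where 1.0% of all pairs were called lower and 0.373% higher. The tags of the Lyz2 site 19.5 kb upstream fell by 0.76 on the log2 scale relative to the median pair (95% interval -1.16 to -0.37, adjusted p = 0.0145 by the exact binomial test). The Fcgr1 site 6.7 kb upstream, with 165.5 in MPs, 82.8 at 36 h and 141.0 in OCs, fell by 0.88 (-1.38 to -0.39, adjusted p = 0.0281, same exact test). The intronic Cd36 site fell by 0.62 (-0.95 to -0.29, adjusted p = 0.0199, same exact test). This Cd36 site also fell by 0.73 between MPs and OCs (-1.06 to -0.40, adjusted p = 0.0137, same exact test), where 0.116% of all pairs were called lower and 0.0699% higher. No pair of the genes was called between 36 h and OCs without the limit, against 0.0241% of all pairs higher and 0.0534% lower. Its scores at 36 h and in OCs were 193.6 and 192.4.

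The largest rise and the largest fall from MPs to OCs, among the 95 pairs with at least 20 tags in both libraries together, did not pass the adjusted threshold. Their sequences are shown with the same capitals.
Lyz2, downstream site (chr10:116713113-116713263): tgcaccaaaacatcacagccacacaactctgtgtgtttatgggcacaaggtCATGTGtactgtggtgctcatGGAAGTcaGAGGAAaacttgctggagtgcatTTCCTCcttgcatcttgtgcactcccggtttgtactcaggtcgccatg
Cd36, intronic site (chr5:17363167-17363317): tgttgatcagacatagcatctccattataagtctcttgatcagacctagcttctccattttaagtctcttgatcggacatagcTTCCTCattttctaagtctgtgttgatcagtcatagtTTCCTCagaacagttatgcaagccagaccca

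The Lyz2 site 6.2 kb from the start, downstream of the gene, scored 10.2 in MPs, 19.2 at 36 h and 41.1 in OCs (log2 2.03, 0.73 to 3.59, adjusted p = 0.128, exact binomial test). Its MP value rests on 6 tags, against 28 in OCs. The Cd36 site 31.5 kb into the gene scored 75.1, 39.9 and 26.4 (log2 -1.48, -2.36 to -0.66, adjusted p = 0.0669, exact binomial test). The highest Lyz2 site had a log2 ratio of -0.30 for the same comparison (-0.65 to 0.05).

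Tags were then summed for each gene over its sites called in all 3 lists, 4 in Fcgr3 and 7 to 13 in the others, so that the sum does not move with the number of peaks called. The wider peaks at 36 h enter these sums too. At 36 h, 6 of the 10 genes had fewer tags than in MPs relative to the median gene, at an adjusted p under 0.05 by an exact binomial test over 16749 genes, and none had more. In the genome 5.98% of genes were called, 1.87% higher and 4.11% lower. The changes were all within 1.5-fold, and with a limit at 1.5-fold none of the 10 was called. The 10 genes are covered by more tags than most, with 136 to 806 in MPs and a median of 447, against a median of 100 for all genes, and among the 6523 genes with at least 136 MP tags 8.26% were called lower and 2.27% higher. The median log2 ratio was -0.37 for the 10 genes and 0.00 for all genes, and scaling by library size in place of the median gene gave -0.48 for the 10. High sites were lower at 36 h in the whole genome too, with a median log2 score ratio, not set against the median gene, of -0.23 over 6526 sites with a mean score of at least 100, against -0.43 over the 22 such sites of the 10 genes. When the expected ratio was taken from sites of like score, an alternative added after seeing the data, 4 genes (Fcgr1, Fcgr4, Msr1 and Cd36) were called lower, against 2.12% of all genes. When each site was given to the gene with the nearest start, also added after seeing the data, 3 genes (Fcgr1, Msr1 and Cd36) were called lower, against 3.06% of all genes.

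The scavenger receptors Cd36 and Msr1 had the lowest ratios at 36 h in these sums, with intervals that overlap those of Fcgr1, Fcgr3 and Fcgr4. With the tags of all called peaks, Fcgr4 (-0.65) and Fcgr3 (-0.58) were lower than Msr1 (-0.56) and Cd36 (-0.50). The summed score of Cd36 over 9 sites was 989.4 in MPs, 623.8 at 36 h and 706.3 in OCs, and its tags fell by 0.55 on the log2 scale at 36 h (-0.73 to -0.37, adjusted p = 3.50e-06, exact binomial test). Msr1 over 9 sites had 764.2, 489.3 and 581.5 and fell by 0.53 (-0.74 to -0.32, adjusted p = 1.50e-04, exact binomial test). Both stayed below MPs in OCs, where Cd36 was lower by a log2 ratio of -0.47 (-0.65 to -0.29, adjusted p = 2.34e-04) and Msr1 by -0.38 (-0.58 to -0.18, adjusted p = 0.0185) in the same exact test. These were the 2 genes of the 10 called between MPs and OCs, where 1.25% of all genes were called lower and 2.73% of the genes with at least 136 MP tags. The Msr1 call for OCs was lost with the expected ratio from sites of like score.

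Of the Fc receptors, 3 were called lower at 36 h. Fcgr1 had summed scores of 668.7, 443.4 and 536.0 over 10 sites, and its tags fell by 0.48 at 36 h (-0.70 to -0.26, adjusted p = 0.00161, exact binomial test). Fcgr4 had 760.8, 527.7 and 613.8 over 7 sites and fell by 0.41 (-0.62 to -0.21, adjusted p = 0.00370, exact binomial test). The inhibitory receptor Fcgr2b had 1374.9, 1089.4 and 1198.2 over 13 sites, the highest sums of the 10 genes, and fell by 0.22 (-0.37 to -0.07, adjusted p = 0.0460, exact binomial test). The sums of these receptors are not independent: of the 7 Fcgr4 sites, 2 are also in the Fcgr2b sum, the highest Fcgr4 site among them, and 3 are also in the Fcgr3 sum, where they are 3 of 4 sites. In the same exact test, the Fcgr2b call was lost with a 10 kb window (-0.17, adjusted p = 0.328), with the nearest start (-0.16, adjusted p = 0.366) and with the ratio of like sites (-0.12, adjusted p = 0.371). The Fcgr4 call was lost in the exact test with a 10 kb window (-0.32, adjusted p = 0.439) and the nearest start (-0.36, adjusted p = 0.0620), and its value was -0.65 with the tags of all called peaks and -0.27 with a 50 kb window. Fcgr3 had 232.0, 159.6 and 183.6 over 4 sites, the lowest sums, with a log2 ratio of -0.42 at 36 h (-0.80 to -0.05, adjusted p = 0.173, exact binomial test). In OCs the log2 ratios to MPs of the 4 receptors were between -0.32 and -0.18, and none was called.

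Lyz2 had 743.7, 548.4 and 721.0 over 10 sites, and its tags fell by 0.32 at 36 h (-0.53 to -0.12, adjusted p = 0.0325, exact binomial test). This call was lost in the same exact test with a 10 kb window (-0.02, adjusted p = 1), with the nearest start (-0.05, adjusted p = 0.983) and with the ratio of like sites (-0.24, adjusted p = 0.167), and of the 11 Lyz2 sites 6 have Lyz2 as the nearest start. In OCs its log2 ratio to MPs was -0.03 (-0.22 to 0.16). Mrc1 had 890.4, 681.4 and 800.3 over 11 sites, with a log2 ratio of -0.27 at 36 h (-0.45 to -0.09) that missed the threshold at an adjusted p of 0.0538 in the exact test. Emr1 had 673.8, 557.3 and 607.9 over 9 sites, with log2 ratios of -0.16 at 36 h (-0.37 to 0.05) and -0.13 in OCs (-0.34 to 0.07). Cd68 had 798.3, 737.6 and 800.3 over 10 sites, with log2 ratios of 0.00 at 36 h (-0.18 to 0.19) and 0.02 in OCs (-0.16 to 0.20). Its window holds 7 other gene starts, and all but 1 of its sites lie nearer to another gene.

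Between 36 h and OCs none of the 10 genes was called, where 0.352% of genes were called, 0.149% higher and 0.203% lower. All 10 log2 ratios were above 0, from 0.01 in Cd68 to 0.29 in Lyz2 (0.09 to 0.49, adjusted p = 0.161, exact binomial test). With a 10 kb window, the ratio of like sites or the nearest start, 1 of the 10 was below 0, and with a 50 kb window 2 were. The 36 h library here is the same as in the comparison with MPs.

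**Figure D4:**
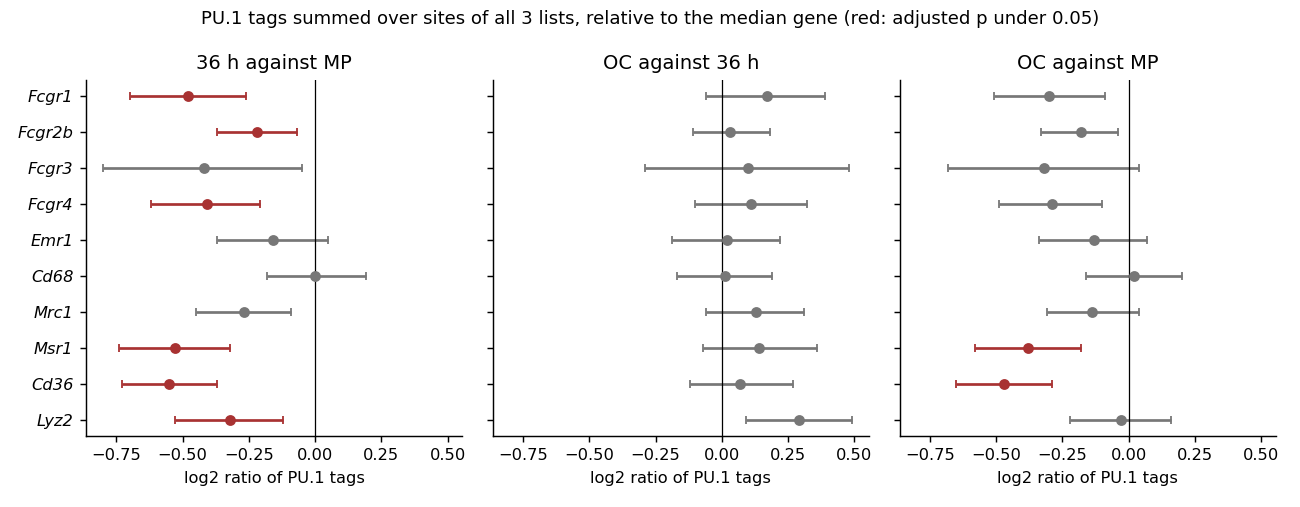
Log2 ratio of PU.1 tags summed over the sites called in all 3 PU.1 lists, relative to the median gene (x axis), for each gene (y axis) in the 3 comparisons of libraries, with 95% exact intervals. Red points have an adjusted p under 0.05: 6 genes at 36 h against MP, none in OC against 36 h, and Msr1 and Cd36 in OC against MP.

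Other genes of the pathway and lineage were set beside the markers in lists, with the same sums. Over all genes, 4.11% were called lower and 1.87% higher at 36 h against MP, and 1.25% and 0.603% in OCs against MP. Among genes with at least 136 MP tags these shares were 8.26% and 2.27%, and 2.73% and 0.460%. Of 9 Fc receptor signalling genes with a common site, 1 was called higher and none lower at 36 h against MP, and the median log2 ratio was 0.06. The gene called was Tyrobp, an ITAM adaptor, with 363 tags in MPs and 478 at 36 h (log2 0.31, 0.11 to 0.51, adjusted p = 0.0435, exact binomial test). None of the 9 was called in OCs against MP (median 0.09), with Tyrobp highest at 0.21 and the kinase Lyn lowest at -0.07. Of 19 other macrophage surface genes, 2 were called lower at 36 h and none higher (median -0.09), the inhibitory receptor Cd200r1 at -0.53 and Mertk, a receptor for apoptotic cells, at -0.29. None was called in OCs against MP (median -0.03), with the scavenger receptor Marco highest at 0.26 and Cd200r1 lowest at -0.26. Of 14 osteoclast effector genes, the kinase Src was called higher (0.41) and the proton pump subunit Atp6v0d2 lower (-0.41) at 36 h (median 0.09). Ctsk, the collagen-degrading cathepsin K, was called lower in OCs against MP (-0.28, median of the list -0.06). In OCs the range was from -0.28 in Dcstamp, a fusion receptor, to 0.80 in Calcr, the calcitonin receptor, which had 14 tags in MPs and 28 in OCs. The medians of the 10 markers were -0.37 at 36 h and -0.24 in OCs. Whether the lists differ from the markers was not tested. PU.1 peaks per 100 kb in MPs had medians of 13.89 for the markers, 15.9 for Fc receptor signalling, 12.7 for other macrophage surface genes and 11.3 for osteoclast effectors. In the same order the medians were 9.24, 12.8, 11.6 and 9.72 at 36 h. In OCs they were 10.3, 15.5, 11.7 and 12.0, with the markers lowest by this measure at both stages after RANKL. By the median number of peaks per gene the markers were not lowest. In the same order these medians were 10, 13, 10.5 and 9.5 at 36 h, and 12.5, 15, 11.5 and 10 in OCs. Over the merged windows of the markers there were 12.1 peaks per 100 kb in MPs, 9.92 at 36 h and 11.5 in OCs.

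MITF was called at few of these sites. The 10 genes held 17 MITF peaks in MPs (95% Poisson interval 9.90 to 27.2), 8 at 36 h (3.45 to 15.8) and 14 in OCs (7.65 to 23.5). At least 1 was found in 8, 8 and 9 of the genes, against 24.5%, 17.9% and 21.6% of all protein-coding genes. Mrc1 had the most in OCs with 4, after 3 in MPs and 2 at 36 h. Fcgr2b had 4, 1 and 2, Cd36 had 2, 1 and 3, and Fcgr3 had none in any library. Lyz2 had none in MPs and 1 at 36 h and in OCs, Emr1 had 1 in MPs and in OCs and none at 36 h, and Fcgr1, Fcgr4, Cd68 and Msr1 each had 2, 1 and 1.

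All 17 MITF peaks in MPs and all 14 in OCs overlapped PU.1 binding at the same stage, and 7 of the 8 did at 36 h. The shares over the whole lists were 97.9%, 93.3% and 93.8%. The exception at 36 h was a MITF peak of 24.3 at 19759 bp upstream of Lyz2 (chr10:116739051-116739221). It lay beside the highest Lyz2 PU.1 site (chr10:116738781-116738971) without overlapping it. From the side of PU.1, 17 of 121 peaks in MPs (14.05%, 8.96 to 21.4), 7 of 99 at 36 h (7.07%, 3.47 to 13.9) and 14 of 115 in OCs (12.2%, 7.39 to 19.4) overlapped a MITF peak, against 6.95%, 4.62% and 5.38% of the lists. These PU.1 peaks were high, with a median score of 201.3 in MPs, 170.0 at 36 h and 178.4 in OCs, against 34.1, 32.5 and 32.3 for the genes' PU.1 peaks without MITF. The same held in the whole lists, with medians of 148.4, 138.9 and 136.6 against 22.2, 22.2 and 22.0.

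The highest MITF site was at the start of Cd68, with a MITF Peak Score of 36.4 in MPs, 63.3 at 36 h and 22.8 in OCs. The site 12.4 kb upstream of Fcgr4, which is also the highest of the Fcgr2b window, scored 18.7, 46.7 and 16. The peaks at 36 h of these 2 sites were 219 and 226 bp wide. All MITF peaks of the MP and OC lists were 150 bp wide, while those of the 36 h list ranged from 150 to 1387 bp, so a score at 36 h can count a wider stretch. At the other sites with 3 values, Mrc1 scored 23.9, 20.4 and 10.3 at 22.4 kb upstream and 13.5, 11.7 and 10.3 at 24959 bp upstream, Fcgr1 scored 19.7, 10.7 and 24 at 202 bp, Msr1 scored 18.7, 10.7 and 18.3 at 22.7 kb, and Cd36 scored 18.7, 13.6 and 10.3 at 49.2 kb. The highest Emr1 value was 10.4, in MPs at 11.5 kb upstream, and the highest Lyz2 value was the 24.3 at 36 h.

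**Figure D5:**
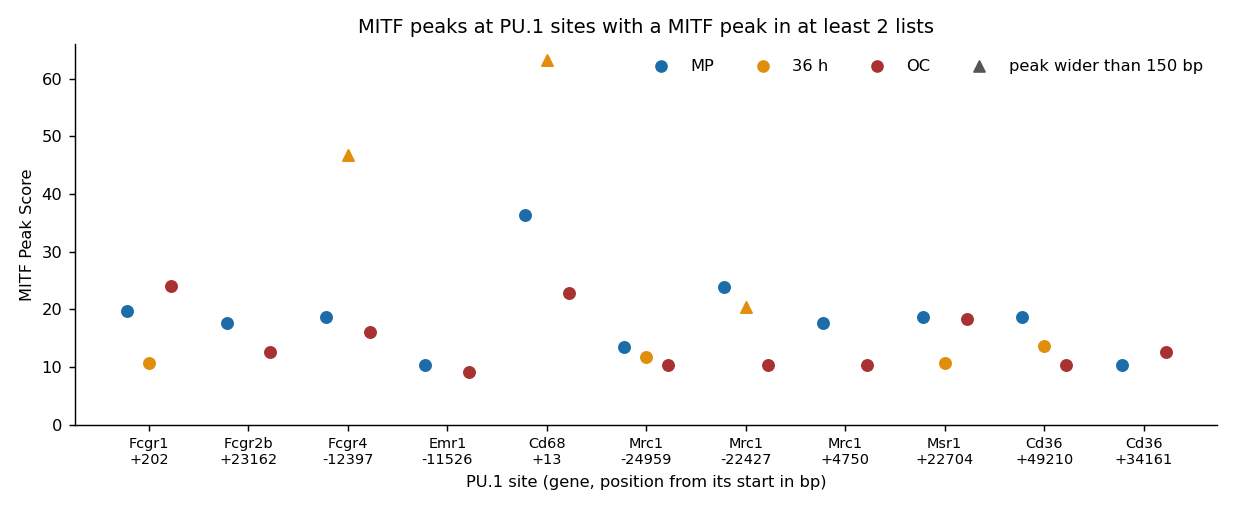
MITF Peak Score (y axis) in the MP, 36 h and OC libraries at the PU.1 sites of the 10 genes that have a MITF peak in at least 2 lists, each named by its gene and its position from the start in bp. Triangles are peaks wider than 150 bp, which occur at 36 h alone. The highest point is the 36 h peak of Cd68 at 63.3.

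Between MPs and OCs, whose MITF peaks have 1 width, none of the 11 pairs at the 10 genes was called, as none of 2844 pairs was in the genome (percent called 0). None of the 11 and 92 of the 2844 had an unadjusted p under 0.05. The log2 ratios of the 11 ran from -1.11 at Mrc1, 22.4 kb upstream, to 0.39 at Fcgr1. Between MPs and 36 h, 2 of 7 pairs were called lower, at Fcgr1 (log2 -1.58, -2.80 to -0.44, adjusted p = 0.0273) and at Msr1 (log2 -1.51, -2.74 to -0.35, adjusted p = 0.0395) in the exact binomial test, where 15.2% of 2509 pairs were called, 9.80% higher and 5.38% lower, or 11.6% and 5.42% without the 2-fold limit. Between 36 h and OCs, 1 of 7 was called higher, at Fcgr1 (log2 2.01, 0.90 to 3.21, adjusted p = 0.00379, same exact test), where 9.66% of 2349 pairs were called, 2.98% higher and 6.68% lower, or 2.98% and 8.09% without the limit. These ratios are relative to a median tag ratio, which was 1.737 over all pairs of 36 h and MP and 0.909 over pairs with 150 bp peaks. With library sizes in place of the median, 1 of the 7 pairs was called at 36 h against MP, higher, and 2 of 7 in OC against 36 h, lower, where 843 of 2509 and 898 of 2349 pairs in the genome were called. None of the calls made against the median was thus made with library sizes. When the pairs were limited to peaks 150 bp wide in both lists, chosen after seeing the data, none of 785 pairs and none of 699 pairs was called, and 11 and 6 had an unadjusted p under 0.05. The log2 ratios of Fcgr1 were then -0.65 at 36 h against MP (-1.87 to 0.49) and 1.06 in OC against 36 h (-0.06 to 2.26), and that of Msr1 at 36 h was -0.57 (-1.80 to 0.59).

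The 3 genes outside these windows and lists whose summed scores were most like the median of the 10, over the 6 PU.1 and MITF libraries, were P2ry13, Ctsb and Crybb1. The Euclidean distances on log2(summed score + 10) were 0.31, 0.32 and 0.39. The 10 markers themselves lay between 0.59 (Msr1) and 4.21 (Fcgr3) from their median. P2ry13, a nucleotide receptor, had summed PU.1 scores of 907.5, 579.5 and 806.1 in MPs, at 36 h and in OCs, against 860.1, 558.8 and 731.8 for the median of the markers. This is a likeness over 6 libraries and is given as a description.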

How the data were processed

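ChIP-Seq peaks of 7 libraries, 1 for each condition, were analysed as deposited. The reads were mapped by the authors to mm9 with Bowtie2, and peaks were called with HOMER. CASAVA 1.8 is also named in the submitters' processing notes. HOMER's settings and the versions of both tools are not given in the sources used here. The deposited values are a Peak Score for each peak. In each list the scores were multiples of 1 value within 0.0511, and division by it gave whole tags, from 3120000 tags for IgG to 10270000 for MITF 36 h in implied library size if HOMER's scale of 10000000 is assumed. Lists held 71941 to 77072 PU.1, 3540 to 5413 MITF and 349 IgG peaks. The median peak was 150 bp wide in PU.1 and MITF MP and OC, 190 bp in PU.1 36 h and 169 bp in MITF 36 h. Genes were taken from GENCODE vM1, and sequences from the mm9 genome. Overlap meant at least 1 bp. Shares carry Wilson and counts exact Poisson 95% intervals, which cover counting error only. Tags of mutually nearest overlapping peaks, and tags summed per gene over sites of all 3 PU.1 lists, were compared by exact binomial tests (two-sided) against the median ratio, with Benjamini-Hochberg adjustment over all pairs or genes, and the scripts were tested on simulated data. Python 3.11.15, numpy 2.4.6 and scipy 1.17.1 were used. Alternatives were the scaling, the window, the fold limit, the score minimum, all called peaks, and 3 added after seeing the data (expected ratio of like sites, nearest start, 150 bp peaks). The text names all 10 genes, the highest PU.1 and MITF site of each, every pair called, the largest rise and fall from MP to OC, the highest and lowest gene of each list, and the 3 most alike genes. The members, lists and rules were chosen with earlier results of these data known. Syk, on the Fc receptor signalling list, was not analysed here.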

Additional observations from a re-analysis of the deposited data

How the results depend on the processing

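No paired analysis was possible because each condition has 1 library, and no replicate could be left out. With a 10 kb window the PU.1 peaks numbered 80 in MPs, 66 at 36 h and 77 in OCs. These falls were similar, and that in MPs was the 1 case among the alternatives that passed 1.5 times. MITF peaks at 2 times the lowest score or above numbered 6 in MPs, 4 at 36 h and 3 in OCs, and with a 10 kb window 4 at 36 h and 9 in OCs. Of the genes' PU.1 peaks at least 2 times the lowest score, 75 of 86 MP peaks had a 36 h peak (87.2%) and 82 of 86 an OC peak (95.3%). Of such 36 h peaks, 73 of 74 had an OC peak (98.6%). The shares of all peaks at this score minimum are not given, so these values cannot be set against the whole lists. With a 10 kb window 4 of 4 MITF peaks at 36 h had a PU.1 peak (100%). Scaled by library size, 1 PU.1 pair was called at 36 h and 1 in OCs against MP, and without a fold limit 3 and 1 were. MITF pairs called numbered 1 (higher) and 2 (lower) at 36 h against MP and OC against 36 h with library-size scaling, opposite in direction to those against the median ratio, and 0 with stronger peaks or with 150 bp peaks, the latter added after seeing the data. For the 6 genes lower at 36 h, the count was 3 with a 10 kb window or the nearest start, 0 with a 1.5-fold limit, 8 with a 50 kb window or library-size scaling, 9 with the tags of all called peaks and 4 with the ratio of like sites. Over the genome, 5.98% of genes were called at 36 h against MP, 11.9% with library-size scaling, 17.9% with all called peaks, 2.62% at 1.5-fold, 4.46% at 10 kb, 7.22% at 50 kb, 4.42% with the nearest start and 5.24% with the ratio of like sites. Pairs called with library-size scaling numbered 1005 against 593 for PU.1 at 36 h, and for MITF 843 against 381 at 36 h and 898 against 227 in OC against 36 h. In OCs against 36 h, 1 gene (Lyz2, higher) was called with library-size scaling (2.33% of all genes) or a 50 kb window (1.03%), against 0 (0.352%). In OCs against MP, 0 were called at 1.5-fold (0.854% of all genes), 5 with the tags of all called peaks (9.25%), and 1 with the ratio of like sites (1.31%), against 2 (1.85%). No called gene changed sign in the alternatives run. For pairs the alternatives gave counts of calls, and single values were read only for MITF peaks 150 bp wide. The nearest-transcript alternative could not count Cd68, whose transcript was not matched. MITF intervals rest on 8 to 65 tags in a peak.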
